A study of Mus musculus with 2 samples.

Results

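Genes of glutathione, thioredoxin and antioxidant defence were followed in mouse embryonic fibroblasts (MEFs) with and without Bmi1, a Polycomb protein of the complex that ubiquitylates histone H2A. The group was a list of 51 genes, of which 47 had an array probe set assigned to that gene alone and 44 gave a signal above the floor of 100 units. They stood among 18194 genes with such a probe set, 11766 of them measured. Total RNA came from 1 culture wild-type for Bmi1 and 1 culture null for Bmi1, which GEO's labels call wildtype and knockout, and each was hybridised to 1 Affymetrix expression array. Both lines were described as male C57BL/6 MEFs from littermates, untreated, grown in DMEM with serum and immortalised with a TBX2.pBabePURO construct, so forced TBX2 expression was common to both groups. Each genotype was 1 line, grown as 1 culture and read on 1 array, so effects of these cannot be told apart, and no difference below has a replicate check or a p-value.

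Cells keep hydrogen peroxide, lipid peroxides and superoxide low through linked thiol systems. Glutathione is made from cysteine, oxidised by peroxidases and glutaredoxins, attached to reactive compounds by glutathione transferases, and reduced again with NADPH, while thioredoxin and thioredoxin reductase run in parallel and feed the peroxiredoxins. Many of these genes are induced by the transcription factor NRF2 (Nfe2l2), which KEAP1 marks for degradation and which binds, with a small MAF partner, to antioxidant response elements (AREs) in promoters.

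The signals are MAS5 intensities, scaled by array to a trimmed mean of 500 units. Each gene is given by its brightest single-gene probe set, log2 ratios are null over wild-type, and signals of different probe sets are not compared with each other, because probes differ in brightness. Pairs of probe sets of 1 gene differed in log2 ratio with an SD of 0.29 per probe set (4591 pairs), and 0.36 for the redox genes themselves (24 pairs), which covers probe error only. Bmi1 read 9933 units in wild-type and 2146 in null cells at its brighter probe set, and 931 and 831 at the other. Where these probes lie with respect to the deletion is not given in the sources used here. All 8 fibroblast markers were above the floor in wild-type cells and 7 in null cells (Thy1 read 375 and 50.7), with summed signals of 71373 and 94838. Within that list the collagen genes Col3a1 and Col1a1 were 4.38-fold and 2.16-fold higher in null cells. Macrophage and blood markers summed to 599 and 482 units with 2 of 6 above the floor on each array, and Ptprc, Itgam, Aif1 and Cd68 were below it on both. Epithelial markers summed to 461 and 1143 units with 2 of 6 above the floor on each array. Epcam accounted for most of that gap at 149 and 834 units, 5.59-fold higher, while Cdh1, Krt14, Cldn4 and Cldn7 were below the floor on both. The part of these markers in the redox differences was not tested. Of 5 measured proliferation markers, 3 exceeded wild-type by 1.5-fold or more (60%, against 12.5% of all measured genes), with a median log2 ratio of 0.82 over the list. The part of culture growth in the redox differences was not tested.

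Promoter sequence is shown for the pair of members with the largest positive ratios, Gpx7 and Gstt1, for the pair with the largest negative ratios, Mgst1 and Glrx, and for the cystine transporter gene Slc7a11. The 150 bases before the RefSeq transcript start (build GRCm38.p6) are written 5′ to 3′ on the gene's strand, with capitals for a match to an ARE core (TGACNNNGC or TGAGNNNGC on either strand) or, in Glrx, to an AP-1 element (TGANTCA).
Gpx7, chr4:108406714-108406863, minus strand: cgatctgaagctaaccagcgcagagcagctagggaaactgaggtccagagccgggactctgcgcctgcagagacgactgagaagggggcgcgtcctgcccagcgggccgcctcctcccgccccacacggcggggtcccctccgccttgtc
Gstt1, chr10:75797732-75797881, minus strand: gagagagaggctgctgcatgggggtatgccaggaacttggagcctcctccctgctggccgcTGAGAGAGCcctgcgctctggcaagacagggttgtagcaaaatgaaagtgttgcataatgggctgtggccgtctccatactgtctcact
Mgst1, chr6:138140377-138140526, plus strand: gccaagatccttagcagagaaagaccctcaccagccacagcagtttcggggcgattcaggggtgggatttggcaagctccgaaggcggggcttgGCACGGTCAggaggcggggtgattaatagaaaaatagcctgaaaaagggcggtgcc
Glrx, chr13:75839735-75839884, plus strand: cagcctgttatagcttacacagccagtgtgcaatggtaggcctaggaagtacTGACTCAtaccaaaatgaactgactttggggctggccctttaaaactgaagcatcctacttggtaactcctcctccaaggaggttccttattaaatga
Slc7a11, chr3:50443614-50443763, minus strand: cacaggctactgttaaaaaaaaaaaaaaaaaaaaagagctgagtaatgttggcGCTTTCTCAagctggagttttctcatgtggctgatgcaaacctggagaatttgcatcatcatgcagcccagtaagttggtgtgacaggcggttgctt

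The first base of the ARE-core match lay 89 bases before the start in Gstt1, 56 in Mgst1 and 97 in Slc7a11, and the AP-1 match in Glrx began 98 bases before it. The window of Gpx7 held 13 CpG dinucleotides and that of Glrx held 0. Each gene is given here by its first listed promoter, although some have several. An ARE core of either form was present in 11 of the 44 redox promoters in the RefSeq table (25%), against 14.9% of all 27025 promoters of that length. These 44 are not the same set as the 44 measured genes. They include G6pdx, Gpx3, Gstk1, Prdx1 and Prdx5, which have no ratio here, and lack Gclc, Gsr, Gsta4, Hmox1 and Sod3, which have one. G6pdx and Prdx1 are among the promoters with an ARE core. AP-1 letters were in 5 of 44 (11.4%) against 4.27%. The redox promoters also had a higher median GC content, 61.7% against 54%, and its part in these shares was not tested. Among the 10 promoters of listed NRF2 targets, 5 held an ARE core. Among members past 2-fold with a promoter there, an ARE core was in 2 of 6 lower and 1 of 2 higher ones. The windows of Gsto1, Txnrd2 and Sod2, which are not shown, held neither an ARE core nor AP-1 letters. These are letter matches in a short window and no binding was measured there.

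Across the 44 measured redox genes, differences were more often large and downward than large and upward. The list was chosen with earlier results of these data known, so its shares describe these genes only. On the null array 7 genes were at least 2-fold lower (15.9%, against 5.16% of all measured genes): Slc7a11, Gsto1, Mgst1, Txnrd2, Glrx, Sod2 and Hmox1. Another 3 were at least 2-fold higher (6.82%, against 5.73%): Gsta4, Gstt1 and Gpx7. At 1.5-fold, Gstp1, Txnrd1, Sod3 and Sqstm1 joined the lower side for 11 of 44 (25%, against 12%), and no gene joined the higher side, which held 3 of 44 (6.82%, against 12.5%). Gstp1 and Sod3 were near that limit. Gstp1 was at -0.57, short of 1.5-fold, with the arrays scaled to the same median, and Sod3 at -0.41 with the mean of its probe sets. The middle of the group lay near 0. The log2 ratio was below 0 for 22 (50%, against 49.4% of all measured genes) and above 0 for 22. The median was -0.08, beside 0.01 over all measured genes. Each class below holds few genes, so its counts describe those genes only. Closest to the 2-fold limit were Hmox1 inside it, 2.04-fold lower (-1.03, or -0.99 with the arrays scaled to the same median), and Sqstm1 outside it, 1.75-fold lower.

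**Figure D1:**
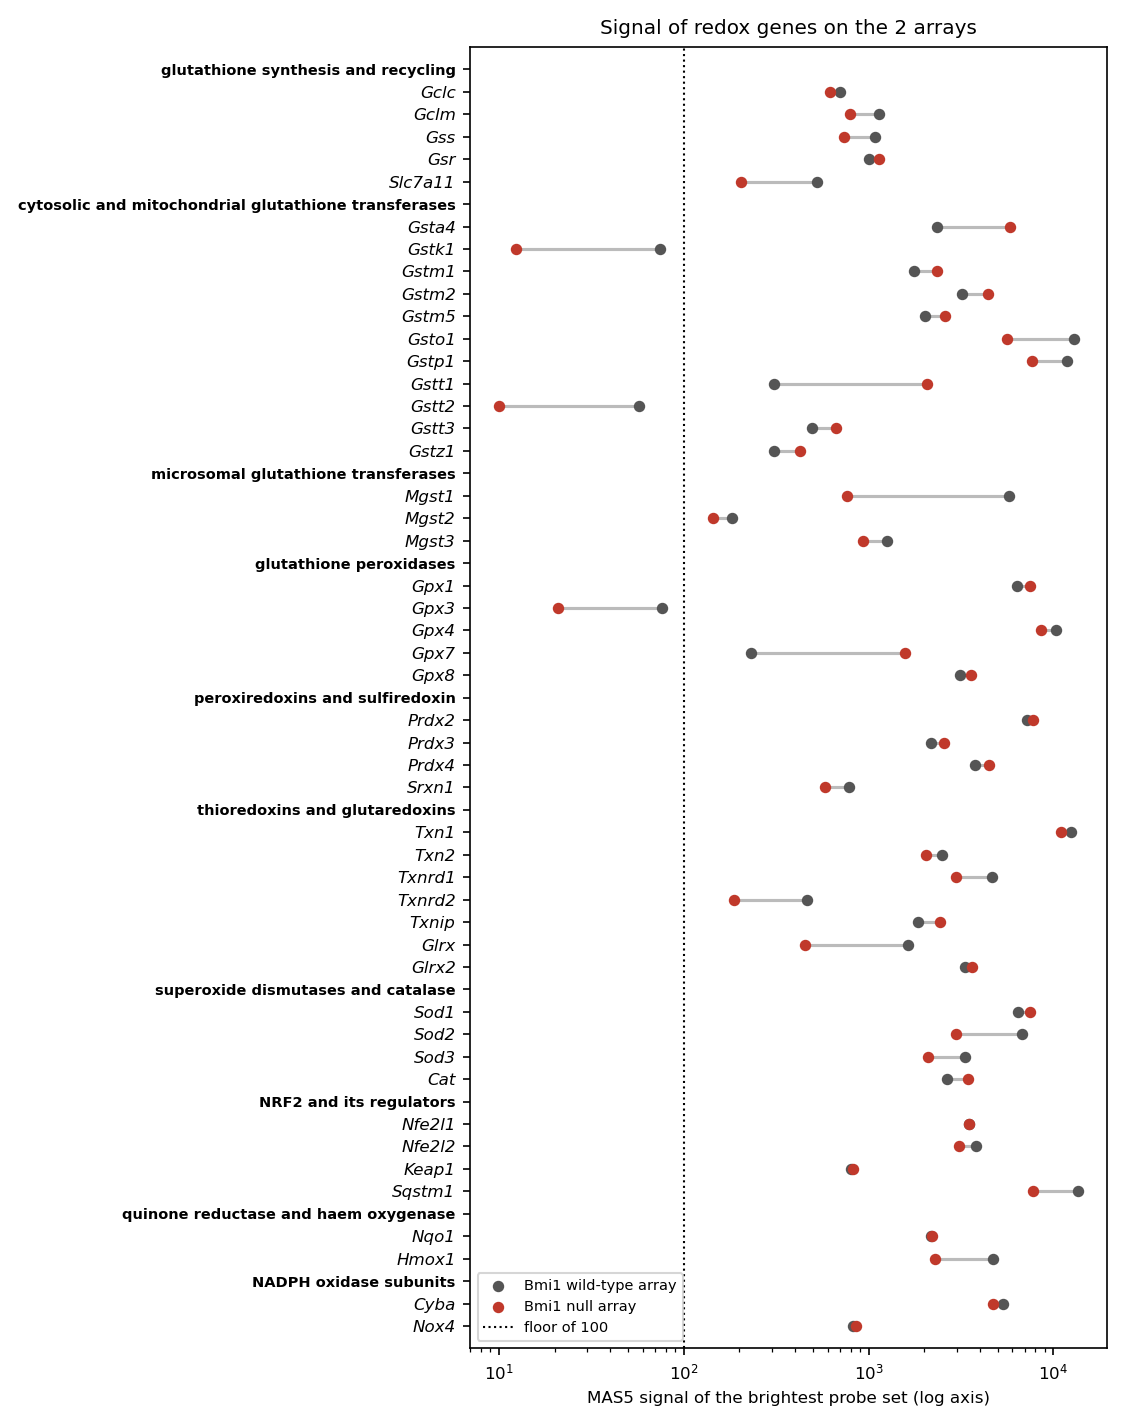
MAS5 signal of the brightest probe set of the 47 redox genes with a single-gene probe set, by class, on a log axis; grey points are the Bmi1 wild-type array, red points the null array, and the dotted line is the floor of 100. Long grey bars with red to the left mark Mgst1, Glrx and Slc7a11, long bars with red to the right mark Gstt1 and Gpx7, and Gstk1, Gstt2 and Gpx3 lie below the floor on both arrays.

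In glutathione synthesis and recycling, the genes for making glutathione and for bringing in its cysteine read lower in null cells. The class median was -0.52 over 5 measured genes, and 4 of them lay below 0 (80%, against 49.4% of all measured genes). The difference was widest at Slc7a11, which encodes the cystine-importing chain of the xCT exchanger. Its signal was 523 units in wild-type and 204 in null cells, a log2 ratio of -1.36, and its other probe set read 250 and 112 (-1.16). Gclc and Gclm encode the catalytic and modifier subunits of glutamate-cysteine ligase, the rate-limiting step. Gclm read 1136 and 793 units, a log2 ratio of -0.52, and -0.48 at its other probe set. Gclc read 702 and 620 units (-0.18), with a wider gap of 618 to 373 (-0.73) at its other probe set. Glutathione synthetase, Gss, which adds glycine in the last step, read 1087 and 737 units (-0.56), and -0.59 at its other probe set. Thus all 8 probe sets of these 4 genes read lower in null cells. Glutathione reductase, Gsr, which regenerates the reduced form, stood apart at 1007 and 1146 units (0.19) and, at its other probe set, -0.05. G6pdx, which supplies NADPH, was not analysed here.

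The cytosolic and mitochondrial glutathione transferases couple glutathione to electrophiles, and their ratios lay on both sides of 0. Of 9 measured genes 7 read higher in null cells and 2 lower (22.2%, against 49.4% of all measured genes), and the median was 0.43. Past 2-fold, 2 were higher (22.2%, against 5.73%) and 1 was lower (11.1%, against 5.16%). Gstt1, a theta-class transferase, read 306 units in wild-type and 2068 in null cells. Gsta4, the alpha-class enzyme that conjugates the lipid peroxidation product 4-hydroxynonenal, read 2348 and 5833 units, or 2.48-fold higher. Both are seen at 1 probe set each. The 3 listed mu-class genes were modestly higher. Gstm1 read 1762 and 2349 units (0.41), with 0.40 to 0.57 over its 4 probe sets. Gstm2 had a log2 ratio of 0.46 and Gstm5 of 0.35. Gstz1, which acts in tyrosine breakdown, had a log2 ratio of 0.47. The pair that read lower belonged to the omega and pi classes. Gsto1, with thioltransferase and dehydroascorbate reductase activity, read 13005 and 5643 units at its brightest probe set, 2.30-fold lower, and 13038 and 3503 at the other, 3.72-fold lower. Gstp1, the pi-class enzyme, read 11811 and 7699 units, 1.53-fold lower. Gstk1 (74.6 and 12.3 units) and Gstt2 (57.2 and 10.0) were below the floor on both arrays.

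The theta and mu genes lie in clusters, and gene order there (RefSeq, GRCm38) sets the members beside their neighbours. On chromosome 10 the order is Ddt, Gstt3, Gstt1, Gstt4, Gstt2, Mif. Gstt1 stood alone at 2.75. Its neighbour Gstt3 had a log2 ratio of 0.43, Ddt of -0.13 and Mif of -0.05, and Gstt4 and Gstt2 were below the floor on both arrays. On chromosome 3 the order is Gstm5, Gstm7, Gstm6, Gstm3, Gstm2, Gstm1, Gstm4. Here the ratios lay closer together, with Gstm3 at 0.17 and Gstm4 at 0.82, but Gstm7 read lower at -0.64 and Gstm6 was below the floor. The mu genes are alike in sequence, so their probe sets can share signal.

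Microsomal glutathione transferases, membrane proteins of the MAPEG family, read lower at all 3 genes, beside 49.4% of all measured genes. Mgst1, which conjugates electrophiles and reduces lipid peroxides in the endoplasmic reticulum and outer mitochondrial membrane, read 5739 units in wild-type and 767 in null cells. This 7.48-fold difference was the widest negative one among the 44 redox genes. On neither array did the second Mgst1 probe set pass the floor, so the ratio rests on 1 probe set. Mgst3 read 1252 and 933 units (-0.42), and Mgst2, near the floor, 183 and 143 (-0.35).

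Glutathione peroxidases reduce peroxides at the expense of glutathione, and here 1 gene differed while the rest of the measured class lay within 1.5-fold. Gpx7, a peroxidase of the endoplasmic reticulum that passes oxidising equivalents to protein disulfide isomerases, read 230 units on the wild-type array and 1581 on the null array, 6.86-fold higher and the largest positive ratio of the 44 genes. It has 1 probe set. Its close relative in that compartment, Gpx8, read 3108 and 3577 units (0.20). Cytosolic Gpx1 read 6371 and 7505 units (0.24), and the phospholipid peroxidase Gpx4, the enzyme that restrains ferroptosis, 10283 and 8550 (-0.27). The secreted Gpx3 was below the floor on both arrays.

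Peroxiredoxins, thiol peroxidases recycled by thioredoxin, showed the smallest differences of any class with at least 4 measured genes, from -0.42 to 0.26 at the brightest probe sets. Prdx2 read 7209 and 7767 units (0.11), with 145 and 271 (0.90) at a dim second probe set. Mitochondrial Prdx3 read 2176 and 2565 units (0.24). Prdx4, the peroxiredoxin of the endoplasmic reticulum, read 3762 and 4500 units (0.26), but its other probe sets gave 1.03 and 0.59. Sulfiredoxin, Srxn1, which repairs overoxidised peroxiredoxins, read 779 and 581 units (-0.42), and all 4 of its probe sets were negative, from -0.64 to -0.33. Prdx1 had only probe sets shared with another gene, and Prdx5 and Prdx6 were not analysed here.

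In the thioredoxin and glutaredoxin class 5 of 7 genes read lower in null cells at their brightest probe sets (71.4%, against 49.4% of all measured genes). Txn2 and both thioredoxin reductases did so at every measured probe set, while the probe sets of Txn1 opposed each other. Cytosolic thioredoxin, Txn1, read 12389 and 11009 units (-0.17), with 0.78 at a dim second probe set. Its reductase Txnrd1 read 4682 and 2984 units, 1.57-fold lower, with 2.09-fold and 1.47-fold lower values at its other probe sets. In mitochondria, Txn2 read 2494 and 2039 units (-0.29), with -0.61 and -0.90 at other probe sets. Txnrd2 read 467 and 186 units, 2.50-fold lower, with log2 ratios of -0.50 and -0.89 at the other measured probe sets, neither past 2-fold, so its range overlaps that of Txn2. Glrx, the cytosolic glutaredoxin that removes glutathione from protein thiols, read 1626 units on the wild-type array and 454 on the null array, 3.58-fold lower, and 1366 and 370, 3.69-fold lower, at its other probe set. The mitochondrial Glrx2 lay near equality at 3319 and 3638 units (0.13), with 0.16 and -0.29 at its other probe sets. For Txnip, the thioredoxin-binding arrestin, the probe sets opposed each other, with 1848 and 2449 units at one and 1072 and 611 at the other, so its direction is unsettled.

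**Figure D2:**
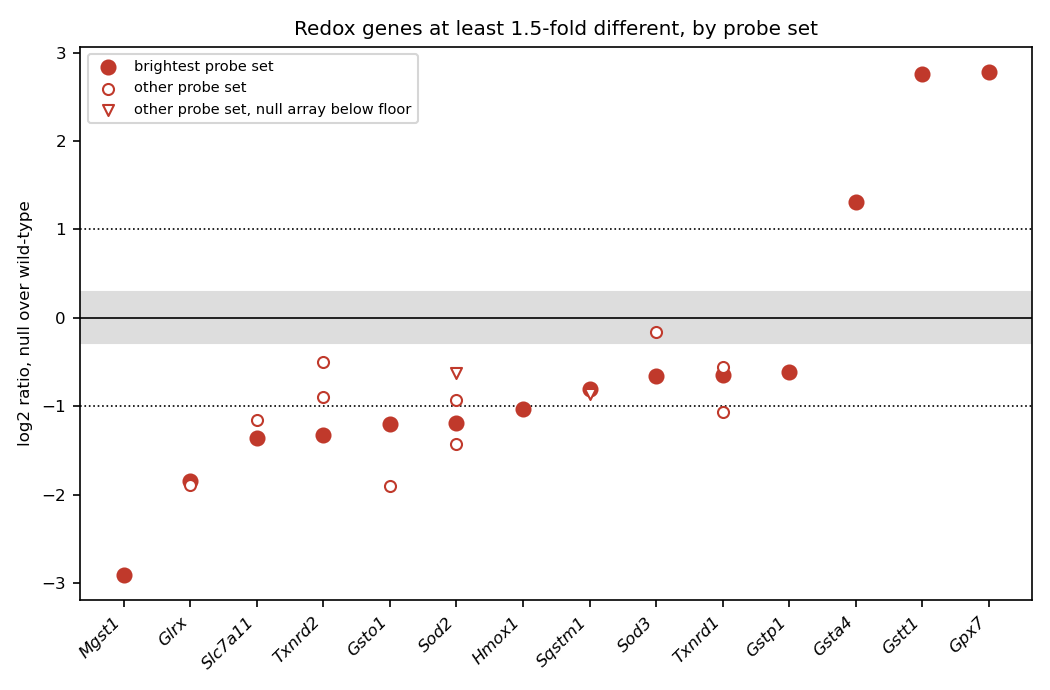
Log2 ratio, null over wild-type, at every measured probe set of the 14 redox genes at least 1.5-fold different; filled points are the brightest probe set, open points the others, triangles a null signal below the floor, the grey band 1 SD (0.29) of probe set error and the dotted lines 2-fold. All 8 genes with several measured probe sets have all of them on 1 side of 0, while Mgst1, Hmox1, Gstp1, Gsta4, Gstt1 and Gpx7 rest on 1 probe set.

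Superoxide dismutases turn superoxide into hydrogen peroxide, which catalase breaks down, and the 3 dismutases differed among themselves. Sod2, the manganese enzyme of the mitochondrial matrix, read 6747 units in wild-type and 2971 in null cells (-1.18), and at its second brightest probe set 6072 and 2254 (-1.43). The dimmer 2 probe sets gave log2 ratios of -0.93 and, against the floor, at most -0.62. The cytosolic copper-zinc enzyme Sod1 read 6410 and 7467 units (0.22), with 0.12 and -0.18 at its other measured probe sets. Extracellular Sod3 read 3325 and 2100 units, 1.58-fold lower, but -0.16 at its other probe set. Catalase, Cat, read 2664 and 3449 units (0.37), with 0.08 at its other probe set. For the mitochondrial genes Sod2, Txnrd2 and Txn2, then, null signals were lower at every measured probe set. At the brightest probe sets Txn2 lay within 1.5-fold, as did the mitochondrial Prdx3 and Glrx2.

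Nfe2l2 itself, the NRF2 gene, read 3828 and 3072 units (-0.32), and its inhibitor Keap1 802 and 827 (0.05). Nfe2l1, a related activator, was at 3502 and 3503 units. Sqstm1, the autophagy receptor p62, which sequesters KEAP1 and is also an NRF2 target, read 13597 and 7759 units, 1.75-fold lower, and at least 1.82-fold lower at a dim probe set. Hmox1, which degrades haem, read 4685 and 2293 units. Nqo1, the quinone reductase often used as an index of NRF2 activity, read 2168 and 2218 (0.03). The listed NRF2 targets thus did not differ as one. Of 12 measured, 8 read lower (66.7%, against 49.4% of all measured genes), and the median was -0.30. Past 2-fold lower were 2, Slc7a11 and Hmox1 (16.7%, against 5.16%), and past 1.5-fold lower 4 (33.3%, against 12%). Gsta4 alone was past 2-fold higher (8.33%, against 5.73%). The 32 measured members outside the target list had a median of 0.05. Of these, 5 were past 2-fold lower (15.6%, against 5.16% of all measured genes) and 7 past 1.5-fold lower (21.9%, against 12%). Another 2 were past 2-fold higher (6.25%, against 5.73%). At 2-fold the shares of targets and other members rest on 2 and 5 genes. At 1.5-fold and at the median these sets lay further apart, and the part of NRF2 was not tested. A further 18 measured NRF2 targets, outside the listed members, had a median of -0.14. Of these, 0 were past 2-fold lower (against 5.16% of all measured genes) and 1 was past 2-fold higher (5.56%, against 5.73%). At 1.5-fold 3 were lower and 3 higher (16.7% each, against 12% and 12.5%). Both subunits of the peroxide-making NADPH oxidase on the list were near equality, Cyba at 5315 and 4707 units (-0.18) and Nox4 at 825 and 860 (0.06).

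**Figure D3:**
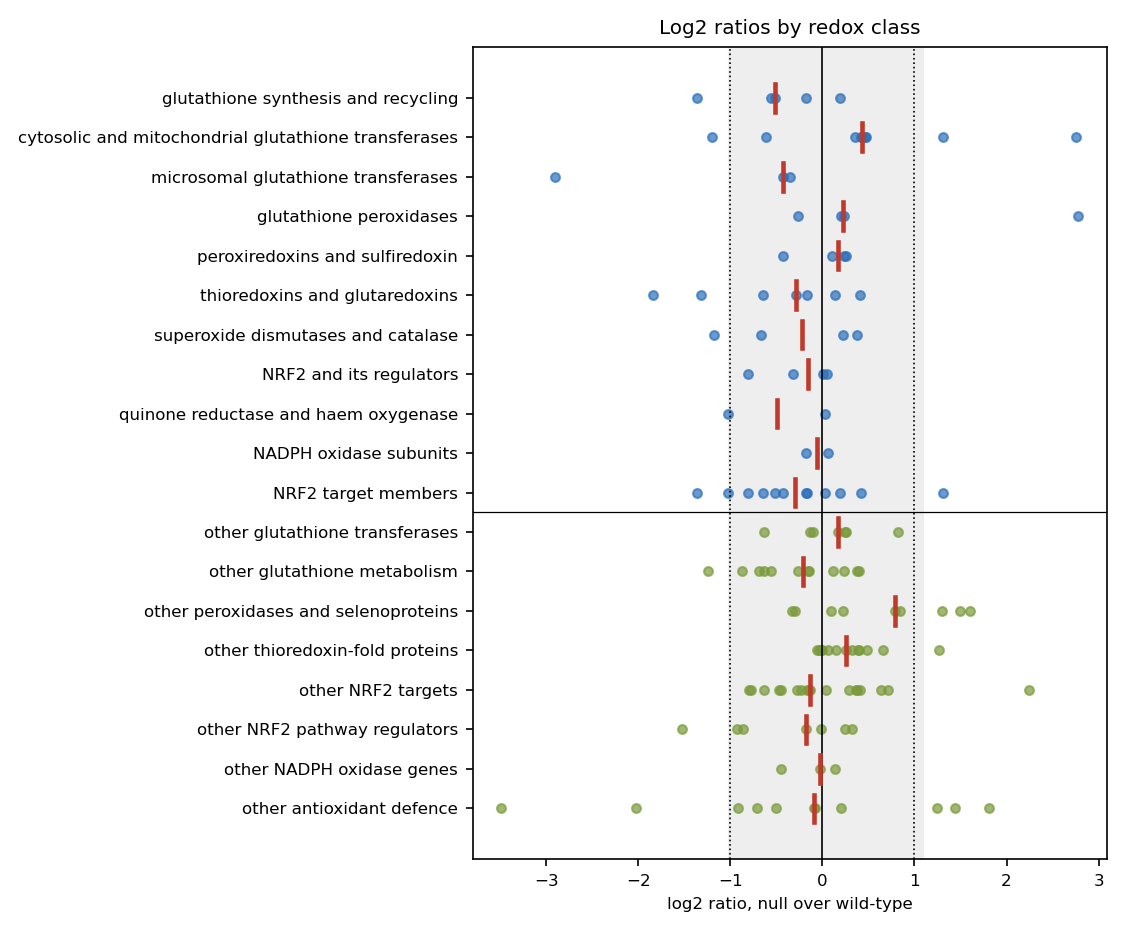
Each measured gene is plotted by class at its log2 ratio of null to wild-type. The 44 measured members are blue above the line, and further redox genes are green below it. The row of NRF2 target members repeats 12 of the blue genes. Red bars are class medians, dotted lines 2-fold and the grey area the 5th to 95th percentile of all measured genes (-1.01 to 1.09). Among the listed genes, class medians run from -0.52 in glutathione synthesis to 0.43 in the cytosolic transferases, and each class with a member past 2-fold also holds members within 1.5-fold.

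The study mapped ubiquitylated H2A (uH2A) in these lines, and its list of genes with a Bmi1-dependent promoter peak names Glrx, Gstp1, Gstt3 and Cat among the redox genes. No share of the list is compared here. They lay on both sides of 0. Glrx and Gstp1 read lower in null cells, at -1.84 and -0.62, and Gstt3 and Cat higher, at 0.43 and 0.37. Of the genes past 2-fold in either direction, Glrx alone is on that list by its symbol. Whether redox genes are on it more or less often than other genes was not tested.

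**Figure D4:**
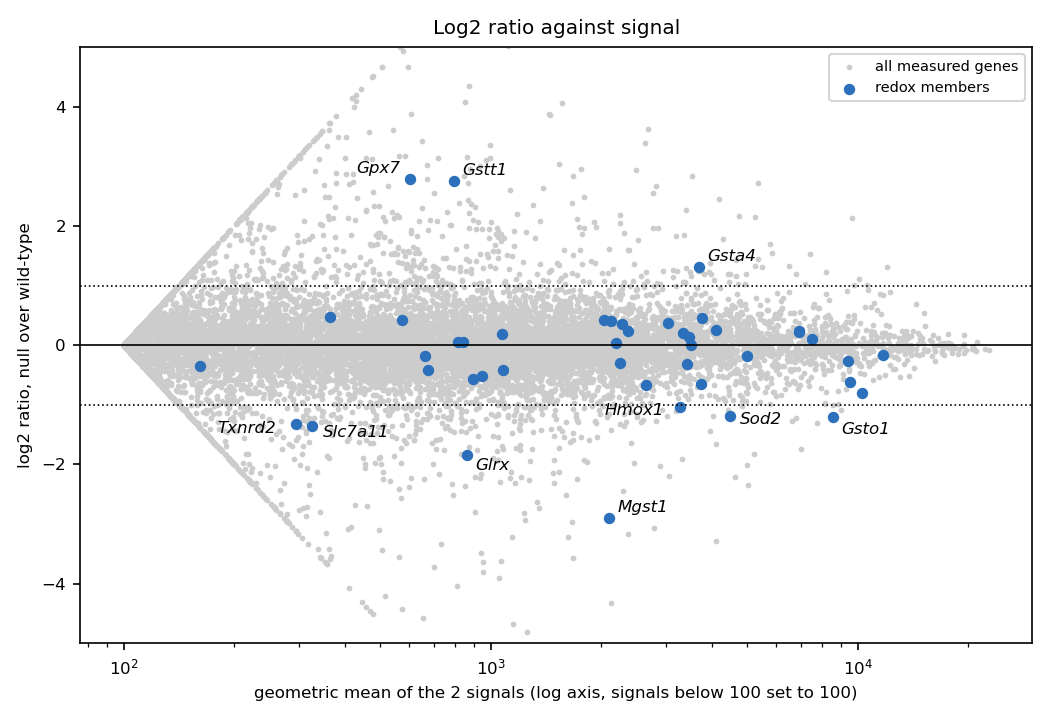
Log2 ratio, null over wild-type, against the geometric mean of both signals on a log axis, with all 11766 measured genes in grey, redox genes in blue and dotted lines at 2-fold; 18 genes beyond the axis limits of 5 are not drawn. Slc7a11 and Txnrd2 lie at lower signals on the axis than Mgst1, Gsto1, Sod2, Hmox1 and Gsta4. The share of grey points past 2-fold was not counted by signal.

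A further 102 redox genes around the list, 80 of them measured, set these values in context. Of these, 8 were at least 2-fold higher (10%, against 5.73%) and 4 at least 2-fold lower (5%, against 5.16%), with a median of -0.01. The B-type methionine sulfoxide reductases, which repair oxidised methionine in proteins, read higher in null cells. Msrb1 read 1371 and 4153 units, 3.03-fold higher, and Msrb3 2163 and 5325, 2.46-fold higher, while Msra, the A-type enzyme, lay at 0.09. Nucleoredoxin, Nxn, a thioredoxin relative, was 2.41-fold higher, and the sestrins Sesn1 and Sesn3 2.37-fold and 2.71-fold higher, while the sestrin Sesn2 read 1359 and 718 units, 1.89-fold lower. The rest of the 8 were dim genes outside the naming rule: Msrb2 and Aldh3a1, below the floor in wild-type and at least 2.82-fold and 4.74-fold higher, and Aox1, 3.51-fold higher. On the lower side were Xdh, xanthine dehydrogenase, which read 3142 and 280 units and was 11.2-fold lower, and the lactonase gene Pon3 at 521 and 128 units. The transporter gene Abcc4, whose product can export glutathione, was 2.36-fold lower. Of the NRF2 partners, Maff was 2.89-fold lower, and Mafg and Mafk, named after their values were seen, were 1.90-fold and 1.82-fold lower. Around the cystine transporter, its heavy chain gene Slc3a2 read 6352 and 5705 units (-0.15), and so differed much less than Slc7a11. The thioredoxin-fold oxidoreductases of the endoplasmic reticulum that work beside Gpx7 and Prdx4 ranged from -0.02 for Txndc12 to 0.66 for Pdia6, with Tmx1 at 0.26, Pdia3 at 0.32, Txndc5 at 0.38, Pdia4 at 0.40 and P4hb at 0.48. Of these Pdia6 alone passed 1.5-fold.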

How the data were processed

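Total RNA from 1 wild-type and 1 null culture was hybridised to 1 Affymetrix array each. The deposited values are 1 intensity per probe set, which the authors derived with MAS5. How MAS5 was scaled is not given in the sources used here, but the mean after trimming 2% at each end was 500 on both arrays. Of 45101 probe sets, 34958 had 1 gene symbol in the platform annotation, 932 several and 9211 none there. Only those with 1 symbol were used. A gene was represented by its probe set of highest mean log2 signal. Signals below 0.2 times the trimmed mean (100 units) were set to that floor, and genes below it on both arrays were not measured. A fold against the floor is written as at least N-fold. Tables were made with Python 3.11.15, pandas 2.3.3 and NumPy 2.4.6, and the script was tested on simulated data. With 1 array per group no test was possible. The number of arrays limits the precision. Members and lists were chosen with earlier results of these data known. Genes were named where a member was at least 1.5-fold different, with the least different members of each class, members without a value, and other redox genes at least 2-fold different with a brighter signal of at least 500 units. Chromosomal neighbours, Slc3a2, Msra, Sesn2 and the thioredoxin-fold proteins of the endoplasmic reticulum were added after their values were seen. Promoters are the RefSeq sequences of GRCm38.p6. Alternatives were other floors, a pseudocount, other scaling and other choices of probe set.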

Additional observations from a re-analysis of the deposited data

How the results depend on the processing

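All 14 redox genes at least 1.5-fold different kept their sign in every setting that gave them a value (8 alternatives, 7 for Gstp1, Mgst1 and Txnrd1). They were picked for large ratios on these same arrays, and other floors left most of their ratios unchanged. A kept sign was therefore likely beforehand and does not stand in for a replicate. Of 151 alternative values of counts and medians, 147 moved by less than the limits set and 4 moved by more. Those limits were wide for small counts. Redox genes at least 2-fold lower numbered 7 of 44, beside 607 of all 11766 measured genes. They numbered 5 of 47 with a pseudocount, beside 470 of 18194, and 10 of 47 without a floor, beside 1580 of 18194. Both of these settings take in the genes below the floor, and with a pseudocount Hmox1 (-0.9998) and Txnrd2 fell short of 2-fold. Without a floor 7 of 93 other redox genes were at least 2-fold lower, against 4 of 80. With a floor of 0.4 times the trimmed mean the microsomal median was -1.66 over 2 genes, against -0.42. The thioredoxin and glutaredoxin median was -0.60 with the mean of all probe sets and -0.75 over 4 genes without probe sets of suffix _s_at, _x_at or _a_at, against -0.29. The cause was not tested. With a pseudocount Txnrd2 had a log2 ratio of -0.98, and -0.91 with the mean of its probe sets, both under 2-fold. Under quantile normalization 23 of the 44 redox genes lay below 0, against 22, with Nfe2l1 the gene that changed sign, and scaling to the same median changed none. Genes near the floor, such as Mgst2, have the least signal over background. No paired analysis was possible because each group held 1 array.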
